A study of Mus musculus with 20 samples.

Results

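Lipid droplet proteins and the enzymes of lipolysis were examined through the histone marks on their genes in fasted mouse liver. The 10 genes were chosen by name, out of 21896 protein-coding genes in the RefSeq table of mouse build GRCm38.p6 (mm10): the perilipins Plin2, Plin3, Plin4 and Plin5, the droplet fusion proteins Cidea and Cidec, the lipase inhibitor G0s2, and the lipases Pnpla2, Lipe and Mgll. A consensus interval, a region from the consensus list the authors deposited for a mark, was assigned to a gene when its midpoint lay in the gene body or within 10000 bases of it. This gave 74 of 65776 intervals for H3K27ac, 110 of 103014 for H3K4me1 and 100 of 46568 for H3K9ac. Plin4 and Plin5 are neighbours on chromosome 17 and share intervals, and an interval shared by both was counted once.

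Triacylglycerol is stored in droplets whose surface is coated by perilipins, and CIDE proteins promote the transfer of lipid between droplets and so their growth. Stored fat is released stepwise: Pnpla2 (adipose triglyceride lipase) removes a fatty acid from triacylglycerol, Lipe (hormone-sensitive lipase) acts on diacylglycerol and Mgll on monoacylglycerol, while G0s2 inhibits Pnpla2. In the fasted liver, fatty acids are oxidised in mitochondria through carnitine palmitoyltransferase Cpt2, and the fatty acid-activated nuclear receptor PPARα, encoded by Ppara, turns on genes of this programme. H3K27ac and H3K9ac mark active promoters and enhancers, and H3K4me1 marks enhancers, active or primed.

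The mice were males of strain C57BL/6, 9 weeks old and fasted for 24 h. The 4 genotypes compared were wild type (WT), a liver knockout of Cpt2 (Cpt2 L-/-, here Cpt2KO), a knockout of Ppara that the labels do not limit to liver (Ppara -/-, here PparaKO), and the double knockout (Cpt2 L-/- ;Ppara -/-, here DKO). The Cre driver behind the liver knockout is not given in the sources used here. H3K27ac and H3K4me1 were each profiled by ChIP-seq in 2 livers per genotype, 8 libraries a mark, and H3K9ac in 1 WT and 1 Cpt2KO liver. The labels number the livers as replicates without saying how they were sampled, so the p-values measure only the spread between these samples. The value for an interval in a library is the fold over pooled input of the highest overlapping peak, and an interval without a peak has no value there. Whole frozen liver was used, so fewer cells of a type and less mark per cell cannot be told apart.

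The H3K27ac lists held 44454 to 48929 peaks and the H3K4me1 lists 61189 to 72151; they carry no read totals, so depth is unknown. Hepatocyte markers (Alb, Apoa1, Ttr, Hnf4a, Cps1) had an H3K27ac peak at 5 of 5 genes in each of the 8 libraries, and of the 5 cholangiocyte markers Krt19, Krt7, Epcam and Spp1 had none in any, while Sox9 had 1 in each library (12.4 and 19.7 in WT, 5.81 and 7.25 in PparaKO, 6.69 and 9.57 in DKO) except the Cpt2KO pair. Across the 5 markers of each of 4 other cell types, summed H3K27ac folds were higher in Cpt2KO than in WT livers for sinusoidal endothelium (98.8 to 107 against 68 to 73.3), stellate cells (33.9 to 46.8 against 16.8 to 20.4), macrophages (36.3 to 48.3 against 27.8 to 32.1) and adipocytes (63.3 to 69.3 against 44.7 to 54.4). The DKO livers stood above the PparaKO livers in the same way, for endothelium (106 to 114 against 70.8 to 82.1), stellate cells (27.2 to 42.4 against 7.26 to 15.4), macrophages (55.1 to 62.9 against 29.7 to 33.2), adipocytes (44.8 to 51.9 against 36 to 40.3) and hepatocytes (134 to 152 against 94.8 to 117). Adipocyte sums were also lower without Ppara, in PparaKO against WT and in DKO against Cpt2KO, with no overlap in either pair. All these sums are of folds as deposited, not centred by library. The median fold of the H3K27ac peak lists was 7.42 to 8.21 in the libraries lacking Cpt2 and 6.69 to 7.17 in the others. Endothelial markers had a peak at 5 of 5 genes in every library and adipocyte markers at 4 or 5 of 5. The stellate marker Reln had a peak in each liver lacking Cpt2 and in no other, the adipocyte marker Lep in both Cpt2KO livers and DKO replicate 1 alone, and the macrophage marker Marco in none. The smallest H3K27ac peak was 217 to 223 bases wide in the 4 libraries lacking Cpt2 and 198 to 210 bases in the other 4. The part of these differences in the results below was not tested.

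Lower H3K27ac was found at 3 places among the 10 genes in livers lacking Ppara (PparaKO and DKO) against livers with it (WT and Cpt2KO): over the start of Mgll, in the body of G0s2, and in a wide interval over Plin4, Plin5 and their neighbours. None was higher. Of the 74 H3K27ac intervals, 30 had a peak in all 8 libraries and could be tested with limma, and the 3 of 30 (10.0%) at an adjusted p under 0.05 compare with 6.8% of all 18281 intervals tested, of which 2.9% passed as higher and 3.89% as lower. The lower adipocyte marker sums in livers without Ppara, given above, move in the same direction, and their part was not tested. The median log2 difference was -0.16 over the 30 intervals and -0.02 over all. Numbers this near the background say little about the genes as a group, and the intervals are described singly.

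Livers lacking Cpt2 (Cpt2KO and DKO), set against livers with it (WT and PparaKO), had higher H3K27ac over the start and upstream of Cidec and upstream of Mgll, and lower H3K27ac at the far end of Cidec and downstream of Plin3. These 3 higher and 2 lower calls of 30 (16.7%) compare with 12.2% of all intervals, 7.26% higher and 4.99% lower, and the medians were 0.04 and 0.07. The higher calls depended on scaling. When libraries were centred on the intervals tested, rather than on their whole peak lists, 0 were higher and 2 lower, and the calls over all intervals turned from 1327 higher and 912 lower to 896 and 1349. Quantile normalization also gave 0 and 2, with 1016 and 1116 over all intervals. With the folds as deposited, not centred, the median difference over all intervals moved to 0.25, and 8 members were called higher and 2 lower, with 3504 and 432 over all intervals. With smallest peak width as a covariate, limma called 0 members, with 1 at an unadjusted p under 0.05, and 0.0% of all intervals. The smallest width was larger in each library lacking Cpt2, so this fit cannot tell the 2 apart. It raised the standard error over the Cidec start from 0.17 to 0.51. A Cpt2 call lost under it, as given below, therefore says little of a single interval.

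**Figure D1:**
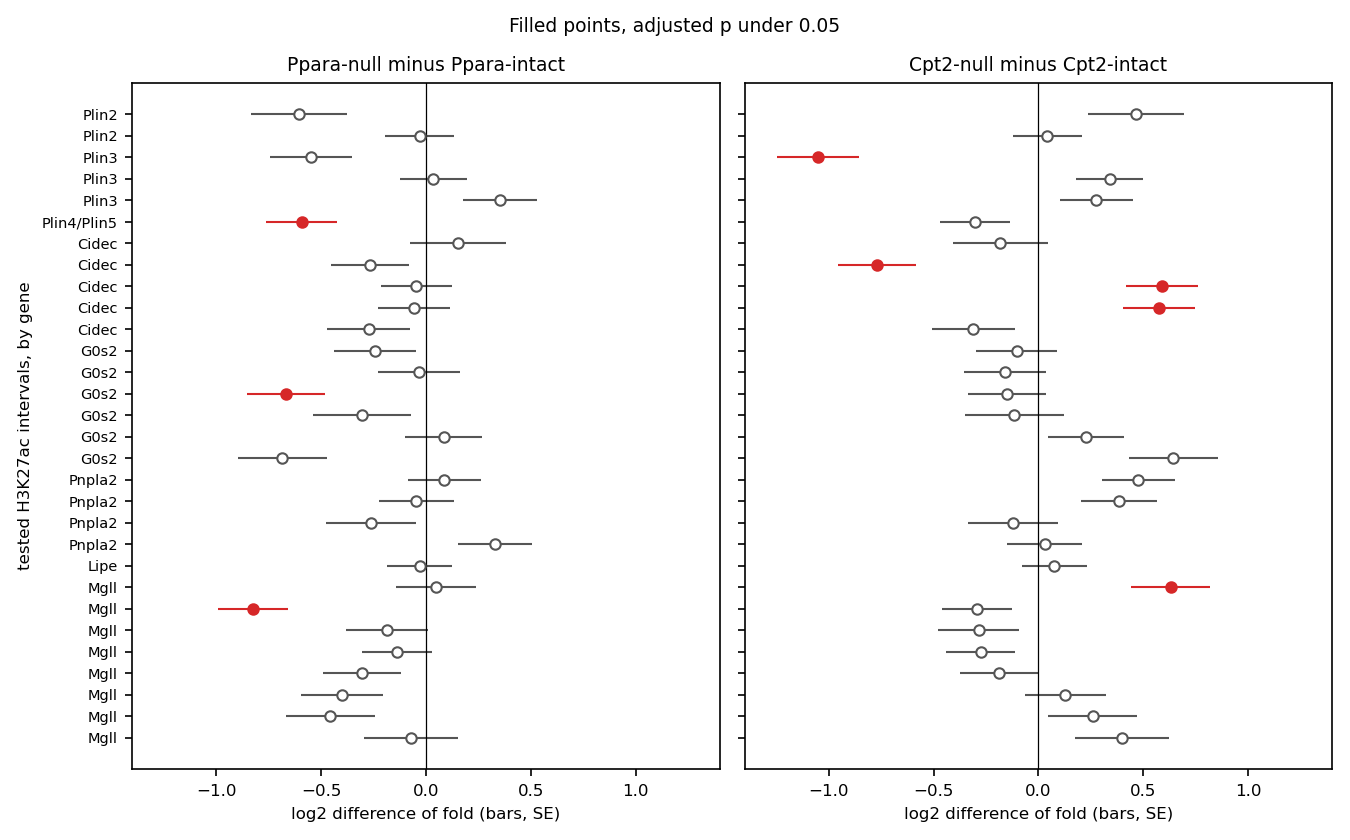
Log2 differences of H3K27ac fold (x axis, with limma standard errors) for the 30 tested intervals, grouped by gene (y axis), for loss of Ppara (left) and of Cpt2 (right). Filled points passed an adjusted p of 0.05: 3 to the left of 0 for Ppara, and 3 to the right and 2 to the left for Cpt2.

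Between single genotypes, Cpt2KO against WT gave 4 higher and 2 lower of 30 (20.0%, against 12.6% of all intervals, 6.64% higher and 5.93% lower), and PparaKO against WT gave 0 higher and 3 lower (10.0%, against 5.93%, 2.32% higher and 3.61% lower). These 2 comparisons share the WT libraries. DKO against Cpt2KO gave 0 calls by limma, where 2.03% of all intervals passed, 0.569% higher and 1.47% lower. At an unadjusted p under 0.05 there were 5 (16.7%, against 13.2% of all). The interaction, which asks whether the Ppara difference depends on Cpt2, gave 0 calls, and 0.0% of all intervals passed. Unadjusted there were 8 (26.7%, against 14.3% of all). Differences between the effects in the 2 backgrounds were therefore not shown.

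**Figure D2:**
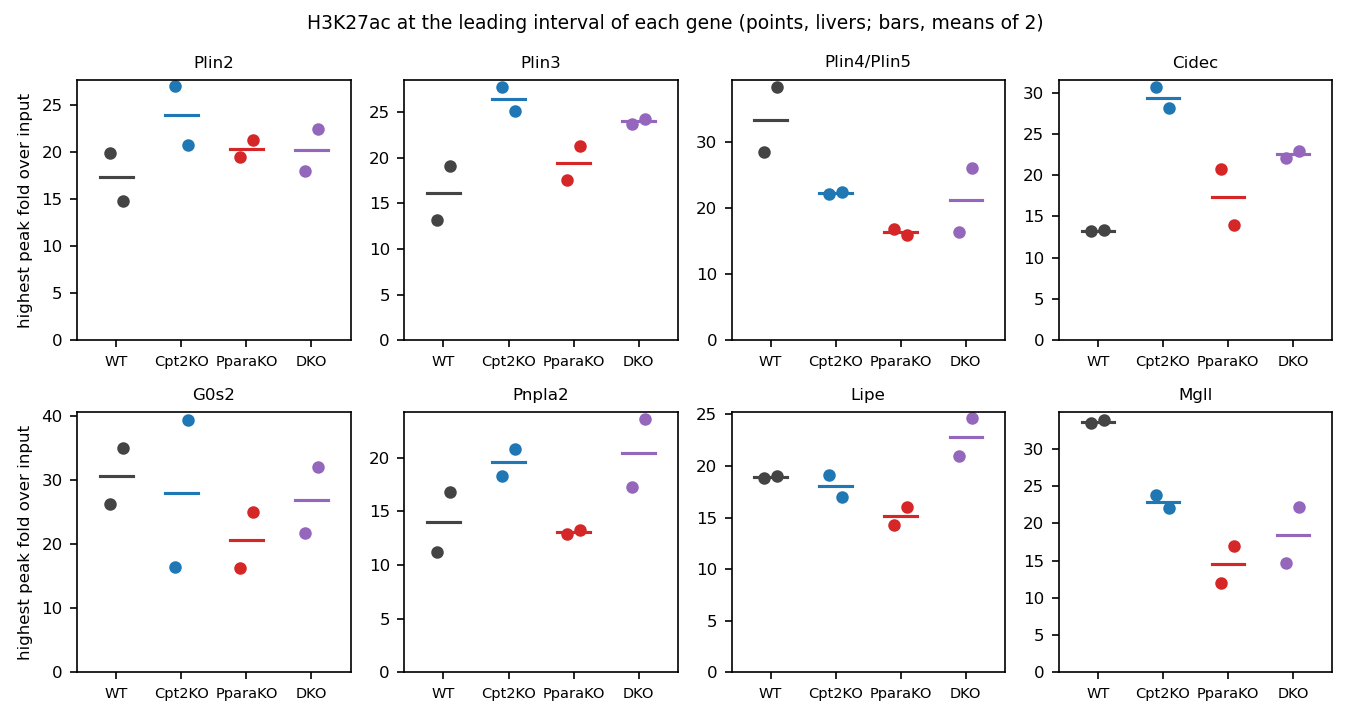
H3K27ac fold over input (y axis) at the leading interval of each gene, the one with the highest mean log2 fold among those called in all 8 libraries, by genotype (x axis). Points are livers and bars the means of 2. Mgll lies at 33.5 and 33.8 in WT and at 12 and 17 in PparaKO. For Plin2 the PparaKO and DKO livers overlap both the WT and the Cpt2KO livers.

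Plin2 (gene 11520, chromosome 4) encodes the main perilipin of hepatocyte droplets. Its leading H3K27ac interval, chr4:86667465-86673537 in mm10, covered the start. Folds there were 19.8 and 14.8 in WT, 27 and 20.8 in Cpt2KO, 19.4 and 21.2 in PparaKO, and 18 and 22.4 in DKO. Both Cpt2KO livers were above both WT livers, a difference of 0.30 ± 0.23 (SE) that did not pass by limma (adjusted p = 0.428). The PparaKO and DKO livers overlapped both. Neither loss passed the test, with log2 differences of -0.03 ± 0.17 (adjusted p = 0.946) for Ppara and 0.04 ± 0.17 (adjusted p = 0.89) for Cpt2. Within the gene body, chr4:86664178-86667186 gave folds of 6.37 and 6.48 in WT, 13.4 and 13.4 in Cpt2KO, 7.36 and 4.5 in PparaKO, and 5.0 and 9.20 in DKO. Both Cpt2KO livers stood above the other 6, but the difference from WT, 0.89 ± 0.32, missed the threshold (adjusted p = 0.0793).

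The 250 bases before the Plin2 start are shown because PPARα with its partner RXR binds a direct repeat of AGGTCA spaced by 1 base, and among the promoters of these genes only this one held a near match. The search was for AGGTCANAGGTCA on both strands with at most 2 mismatches. The sequence is from RefSeq, chr4:86670060-86670309 in GRCm38.p6, minus strand, written 5′ to 3′, with the match in capitals; it lies on the opposite strand of the gene and starts 225 bases before the start.
Plin2 promoter: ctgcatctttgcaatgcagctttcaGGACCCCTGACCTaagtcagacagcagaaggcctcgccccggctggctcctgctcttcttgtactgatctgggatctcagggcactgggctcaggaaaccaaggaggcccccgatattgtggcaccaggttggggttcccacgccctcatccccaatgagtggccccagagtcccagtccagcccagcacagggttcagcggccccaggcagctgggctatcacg
Such a match was present in 3.24% of the 32851 promoters in the table. Of the 10 genes, 9 matched the table, with 13 starts in all; the match is a description of letters, and H3K27ac at this start did not pass the test for Ppara.

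Plin3 (gene 66905, chromosome 17) encodes a perilipin found on small, new droplets and in the cytosol. Over its start, in chr17:56287655-56292006, H3K27ac folds were 11.1 and 13 in WT, 20.4 and 15.1 in Cpt2KO, 18.1 and 15.4 in PparaKO, and 18.6 and 25.2 in DKO. Both WT livers were the lowest of the 8, but no comparison passed, with 0.35 ± 0.17 (adjusted p = 0.249) for Ppara and 0.28 ± 0.17 (adjusted p = 0.303) for Cpt2. The leading interval, chr17:56275101-56280258, overlaps the neighbouring gene Ticam1 and the end of Plin3. Its folds were 13.2 and 19.1 in WT, 27.8 and 25.2 in Cpt2KO, 17.5 and 21.3 in PparaKO, and 23.7 and 24.3 in DKO, and no comparison passed there either. The highest summit lay in Ticam1 in WT replicate 1 and DKO replicate 2 and in Plin3 in the other 6.

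The Plin3 call lay within Ticam1, an adaptor of innate immune signalling, at chr17:56273311-56274836, below the gene's end. Folds were 10.7 and 9.20 in WT, 6.41 and 6.30 in Cpt2KO, 8.85 and 7.45 in PparaKO, and 3.30 and 4.40 in DKO. Each liver lacking Cpt2 was below each liver with it, and H3K27ac fell by 1.05 ± 0.20 on the log2 scale (adjusted p = 0.00624). The call was kept in 15 of 16 alternatives and lost with the width covariate (adjusted p = 0.705).

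Plin4 (gene 57435), a perilipin best known from muscle and fat, and Plin5 (gene 66968), which tethers droplets to mitochondria in oxidative tissues, lay in a single H3K27ac interval of 18275 bases, chr17:56106887-56125161, that also covered Lrg1 and part of Sema6b. The highest fold there was 28.6 and 38.4 in WT, 22.2 and 22.5 in Cpt2KO, 16.9 and 16 in PparaKO, and 16.5 and 26.2 in DKO. The WT livers were the highest of the 8 and the PparaKO livers were among the 3 lowest. The difference was -0.59 ± 0.17 (adjusted p = 0.041) for Ppara, -1.04 ± 0.24 (adjusted p = 0.021) for PparaKO against WT, and -0.74 ± 0.24 (adjusted p = 0.0484) for Cpt2KO against WT. DKO against Cpt2KO gave -0.15 ± 0.24 by limma and did not pass (adjusted p = 0.896). The Ppara value, a mean over both backgrounds, thus came mostly from PparaKO against WT. The interaction was 0.88 ± 0.33 and did not pass (adjusted p = 0.249).

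The interval holds several genes, and the highest summit lay in Lrg1 in WT replicate 1 and in both PparaKO livers, in Sema6b in WT replicate 2, and in Plin4 in both Cpt2KO and both DKO livers, so peaks at different genes were compared. The Ppara call was lost with the mean fold of the overlapping peaks (adjusted p = 0.0512), without centring (0.0795) and with the width covariate (0.104), and with 6 of the 8 libraries left out in turn (0.0817 to 0.16, all but WT replicate 1 and DKO replicate 2). The PparaKO call was lost without WT replicate 2 (adjusted p = 0.147), PparaKO replicate 1 (0.0971) or PparaKO replicate 2 (0.125). The Cpt2KO call was kept in 6 of 17 alternatives, and lost without WT replicate 2 (0.219), Cpt2KO replicate 1 (0.264) or 2 (0.128), and PparaKO replicate 1 (0.0643) or 2 (0.0641).

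At the starts themselves, peaks with a summit within 1000 bases gave a different order; this description was added after the data were seen and was not tested. At the Plin4 start, folds were 20.6 and 16.5 in WT, 22.2 and 22.5 in Cpt2KO, 14.6 and 13.5 in PparaKO, and 16.5 and 26.2 in DKO. The PparaKO livers were the lowest and the other genotypes overlapped. At the Plin5 starts, the highest such peak was 18 and 16.3 in Cpt2KO, 7.78 and 6.21 in PparaKO, and 6.60 and 10.9 in DKO. No WT summit fell within 1000 bases of a Plin5 start, where the WT lists held 2 and 3 wide peaks over the interval and the PparaKO lists 6 and 7, and a peak carries 1 summit.

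**Figure D3:**
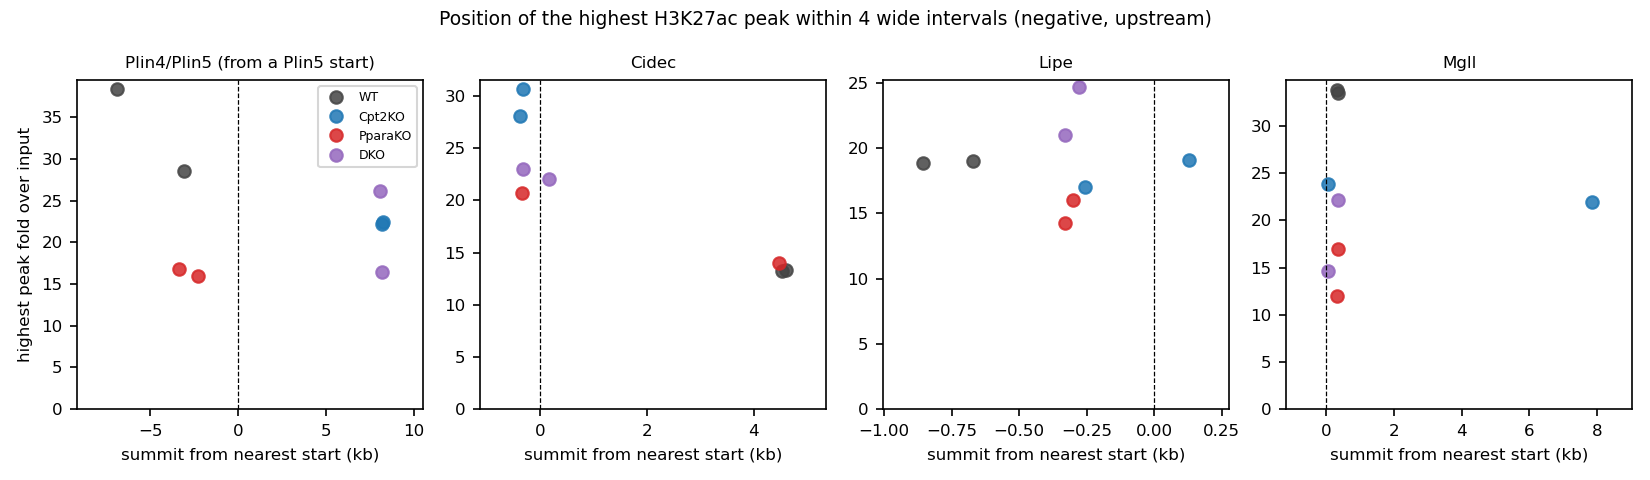
Distance of the highest H3K27ac summit from the nearest start (x axis, kb, negative upstream) and its fold over input (y axis) in 4 wide intervals, 1 point a liver. In the Plin4/Plin5 interval, measured from a Plin5 start, WT and PparaKO summits lie upstream and Cpt2KO and DKO summits downstream, in Plin4; in Cidec 5 livers peak at the start, and both WT livers and PparaKO replicate 2 peak inside the gene.

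Downstream in Plin4, 2 intervals had H3K27ac peaks in livers with Ppara and none in livers without it. At chr17:56102078-56102788, folds were 8.07 and 9.60 in WT and 5.0 in Cpt2KO replicate 2, and at chr17:56102942-56103699 they were 5.69 and 5.17 in WT and 5.45 in Cpt2KO replicate 2. Neither had a peak in Cpt2KO replicate 1 or in any PparaKO or DKO liver. With an interval in the body of Mgll, chr6:88747181-88748272 (5.67 and 4.83 in WT, 5.0 in Cpt2KO replicate 2), these were the 3 of 74 member intervals (4.05%) called in at least 3 of the 4 livers with Ppara and none without, against 1.73% of all intervals. None showed the opposite pattern, which 1.63% of all intervals did. All 3 were absent from Cpt2KO replicate 1, which had a peak at 37 of the 74 intervals, where WT livers had 59 and 57 and Cpt2KO replicate 2 had 51. A further downstream interval of Plin4, chr17:56099917-56101807, was called in both WT and both Cpt2KO livers and also in DKO replicate 2 (5.15).

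Cidea, a droplet fusion protein of brown fat that appears in steatotic liver, had no H3K27ac and no H3K9ac interval. It had 2 weak H3K4me1 intervals. One, in the gene body, was called in 5 libraries with no genotype set apart, at 3.67 in WT replicate 2, 4.0 and 6.46 in Cpt2KO, 5.20 in PparaKO replicate 2 and 4.20 in DKO replicate 1. The other, beyond the gene body, was called at 6.27 in Cpt2KO replicate 1 and at 8.66 and 9.85 in DKO, and in no liver with Cpt2.

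Cidec (gene 14311, chromosome 6), the CIDE protein of white fat that enlarges hepatocyte droplets in steatosis, showed the most H3K27ac calls for Cpt2. Over its starts, in chr6:113429483-113436752, folds were 13.2 and 13.3 in WT, 30.7 and 28.1 in Cpt2KO, 20.7 and 14 in PparaKO, and 22.1 and 23 in DKO. All 4 livers lacking Cpt2 were above all 4 with it. H3K27ac rose by 0.97 ± 0.24 in Cpt2KO against WT (adjusted p = 0.0175). The mean of the Cpt2 differences with and without Ppara, from here on the difference over both backgrounds, was 0.59 ± 0.17 (adjusted p = 0.0329).

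In this interval too the summit moved: the highest peak was near a start, -381 to 162 bases from it, in the Cpt2KO and DKO livers and PparaKO replicate 1, and 4478 to 4612 bases downstream in WT and PparaKO replicate 2. With summits within 1000 bases of the inner start, folds were 11.1 and 12.4 in WT, 30.7 and 28.1 in Cpt2KO, 20.7 and 12.4 in PparaKO, and 22.1 and 23 in DKO, so the order of the genotypes held at the start itself. The 250 bases before this start are shown because the highest peaks of those 5 livers lay beside this start. They are chr6:113434765-113435014 in GRCm38.p6, minus strand, from RefSeq, written 5′ to 3′, in lower case as no match was found.
Cidec promoter: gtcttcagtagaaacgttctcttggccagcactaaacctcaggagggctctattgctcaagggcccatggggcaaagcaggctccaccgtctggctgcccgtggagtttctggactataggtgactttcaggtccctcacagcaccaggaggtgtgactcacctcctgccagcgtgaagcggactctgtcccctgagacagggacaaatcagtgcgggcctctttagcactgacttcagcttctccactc

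Upstream of Cidec, at chr6:113436936-113439457, folds were 12.9 and 10.0 in WT, 33 and 27.4 in Cpt2KO, 18 and 17 in PparaKO, and 16.1 and 22.2 in DKO. The Cpt2KO livers were the highest and the WT livers the lowest, with the other 2 genotypes between them. H3K27ac rose by 1.23 ± 0.24 in Cpt2KO against WT (adjusted p = 0.00645). The difference over both backgrounds, a mean, was 0.57 ± 0.17 (adjusted p = 0.0377). The DKO livers overlapped the PparaKO livers, so the rise was not seen in livers without Ppara. The interaction was -1.32 ± 0.34 and did not pass (adjusted p = 0.137).

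At the far end of the Cidec body, chr6:113427258-113429359, the order was the reverse. Folds were 23.6 and 23.3 in WT, 11.2 and 16.7 in Cpt2KO, 16.8 and 18.1 in PparaKO, and 11.4 and 15.5 in DKO. All 4 livers lacking Cpt2 were below all 4 with it, and H3K27ac fell by 0.77 ± 0.18 over both backgrounds (adjusted p = 0.0157) and by 0.95 ± 0.26 in Cpt2KO against WT (adjusted p = 0.0275). Between them, the Cidec intervals thus changed in opposite directions within a single gene.

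The 3 Cidec differences between Cpt2KO and WT were all lost with the width covariate (adjusted p = 0.714 to 0.926) and without Cpt2KO replicate 1 (0.132 over the start, 0.0845 upstream and 0.325 at the far end). The start was also lost with the mean fold of overlapping peaks (0.301) and without WT replicate 2 (0.0699) or Cpt2KO replicate 2 (0.0791), and the far end without centring (0.0657), with the mean fold (0.0573) and without WT replicate 1 (0.0696) or 2 (0.0906). Over both backgrounds, the rises at the start and upstream were lost when libraries were centred on the intervals tested (0.0576 and 0.0612), with quantile normalization (0.0556 and 0.0586), with the mean fold (0.397, with a log2 value of 0.31 at the start, and 0.248), and with 6 of the 8 libraries left out in turn, all but WT replicate 1 and PparaKO replicate 1 for the start (0.0518 to 0.154) and all but WT replicate 1 and DKO replicate 1 upstream (0.0711 to 0.143). The fall was lost without Cpt2KO replicate 1 (0.092), PparaKO replicate 2 (0.0543) or DKO replicate 1 (0.0557). Upstream, the width covariate turned the value to -0.05. Without Cpt2KO replicate 1, the log2 difference of Cpt2KO against WT was 0.97 over the start, 1.16 upstream and -0.60 at the far end. Cidec is also a gene of adipocytes, whose markers Adipoq, Plin1, Cfd and Fabp4 had peaks in all 8 libraries and summed higher in Cpt2KO than in WT livers, as given above.

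**Figure D4:**
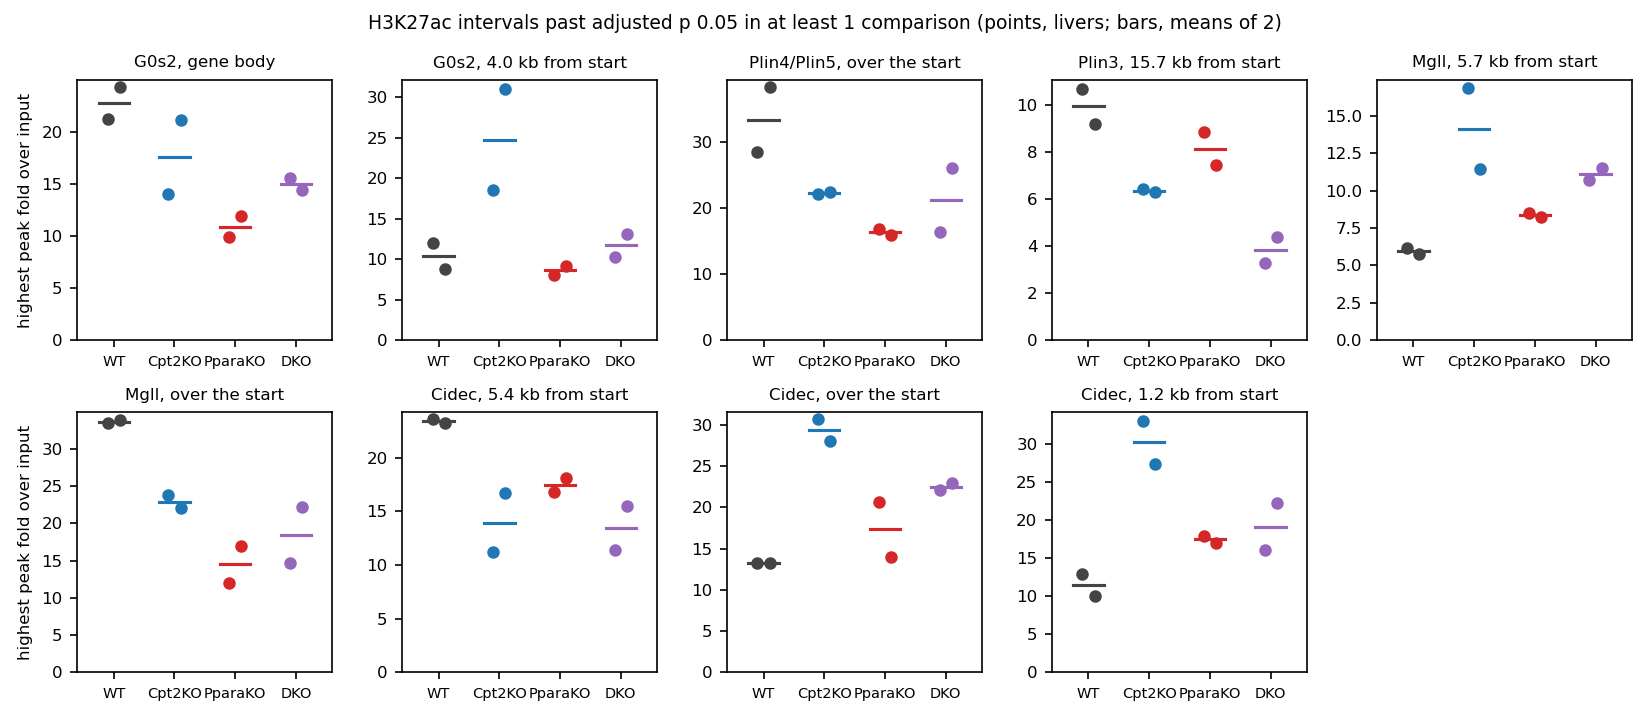
H3K27ac fold over input (y axis) by genotype (x axis) at the 9 intervals that passed an adjusted p of 0.05 in at least 1 comparison; points are livers and bars the means of 2. Upstream of Cidec the Cpt2KO livers stand at 33 and 27.4 and the WT livers at 12.9 and 10.0, while over the Mgll start the WT livers are the highest.

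G0s2 (gene 14373, chromosome 1), the inhibitor of Pnpla2, is a short gene in which separate H3K27ac intervals covered the body and the promoter. In the body, chr1:193271368-193273181, folds were 21.2 and 24.2 in WT, 14 and 21.1 in Cpt2KO, 9.88 and 11.9 in PparaKO, and 15.6 and 14.4 in DKO. PparaKO livers were the lowest and WT livers the highest, while Cpt2KO and DKO livers overlapped. H3K27ac fell by 0.67 ± 0.19 without Ppara (adjusted p = 0.039) and by 1.09 ± 0.26 in PparaKO against WT (adjusted p = 0.0262). DKO against Cpt2KO gave -0.24 ± 0.26 by limma and did not pass (adjusted p = 0.82). The Ppara value, a mean over both backgrounds, thus came mostly from PparaKO against WT. The interaction was 0.84 ± 0.37 and did not pass (adjusted p = 0.316).

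The Ppara call in G0s2 was lost without WT replicate 2, Cpt2KO replicate 2, PparaKO replicate 1 or 2, or DKO replicate 1 or 2 (adjusted p = 0.0672 to 0.245), and kept in 7 of 17 alternatives. The PparaKO call was lost without WT replicate 2 (0.14) or PparaKO replicate 1 (0.15) or 2 (0.0947). Just upstream of the start, chr1:193273267-193273813 was the leading interval, with folds of 26.3 and 35 in WT, 16.5 and 39.4 in Cpt2KO, 16.2 and 25 in PparaKO, and 21.8 and 32 in DKO. The livers of a genotype differed as much as the genotypes, and the Ppara difference was -0.31 ± 0.23 (adjusted p = 0.488).

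Further upstream of G0s2, chr1:193277176-193279877 gave folds of 12 and 8.76 in WT, 18.5 and 31 in Cpt2KO, 8.03 and 9.19 in PparaKO, and 10.2 and 13.2 in DKO. Both Cpt2KO livers were above the other 6, and H3K27ac rose by 1.05 ± 0.30 against WT (adjusted p = 0.0319). The call was lost without WT replicate 2 (0.189) or Cpt2KO replicate 2 (0.316, with a log2 difference of 0.62). DKO against Cpt2KO gave -1.09 ± 0.30 and did not pass (adjusted p = 0.072). A small interval beside it, chr1:193276112-193276689, was called at 6.51 and 7.80 in WT and 5.01 in PparaKO replicate 1 and in no liver lacking Cpt2.

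Pnpla2 (gene 66853, chromosome 7), the lipase that starts triacylglycerol breakdown, had 4 tested H3K27ac intervals and none passed in any comparison. Over its start, chr7:141454996-141458359, folds were 11.2 and 16.8 in WT, 18.3 and 20.8 in Cpt2KO, 12.9 and 13.2 in PparaKO, and 17.3 and 23.6 in DKO. All 4 livers lacking Cpt2 were above all 4 with it, yet the difference of 0.38 ± 0.18 missed the threshold (adjusted p = 0.166). The highest summits of the 8 livers lay within 33 bases of each other.

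Lipe (gene 16890, chromosome 7), the diacylglycerol lipase, had 1 tested interval, chr7:25385867-25397096, which spans both annotated starts. Folds were 18.8 and 19 in WT, 19.1 and 17 in Cpt2KO, 14.3 and 16 in PparaKO, and 21 and 24.7 in DKO. No comparison passed, with -0.03 ± 0.15 (adjusted p = 0.945) for Ppara and 0.08 ± 0.15 (adjusted p = 0.777) for Cpt2. At the inner start, the highest peak within 1000 bases was 18.8 and 19 in WT, 17.5 and 17 in Cpt2KO, 7.20 and 5.92 in PparaKO, and 5.80 and 8.43 in DKO. The 4 livers lacking Ppara were below the 4 with it, a description made after seeing the data and not tested, and their lists held 5 to 8 peaks over the interval where WT held 5 and 1 and Cpt2KO 5 and 3. The outer start showed no such order, at 19.1 and 16.1 in Cpt2KO, 14.3 and 16 in PparaKO, and 21 and 24.7 in DKO, with no WT summit within 1000 bases.

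Mgll (gene 23945, chromosome 6), which releases the last fatty acid and also degrades the endocannabinoid 2-arachidonoylglycerol, gave the Ppara difference that held best. Over its starts, chr6:88723830-88736079, H3K27ac folds were 33.5 and 33.8 in WT, 23.8 and 22 in Cpt2KO, 12 and 17 in PparaKO, and 14.7 and 22.1 in DKO. WT livers were the highest, PparaKO livers and DKO replicate 1 the lowest, and DKO replicate 2 reached the level of the Cpt2KO livers. H3K27ac fell by 0.83 ± 0.17 without Ppara (adjusted p = 0.00687) and by 1.26 ± 0.24 in PparaKO against WT (adjusted p = 0.00954). DKO against Cpt2KO gave -0.39 ± 0.24 and did not pass (adjusted p = 0.546). Cpt2KO against WT was also lower by limma, at -0.73 ± 0.24, and just missed the threshold (adjusted p = 0.0515). The interaction was 0.87 ± 0.33 and did not pass (adjusted p = 0.258).

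The Ppara difference at the Mgll start passed in 17 of 17 alternatives, at an adjusted p of 0.00125 to 0.0421, with the mean fold of overlapping peaks giving -1.59. That alternative gave -2.34 for PparaKO against WT, a call that was lost without WT replicate 2 (adjusted p = 0.0565) or PparaKO replicate 1 (0.0989) and with the width covariate (0.0576). The highest summit lay 61 to 346 bases downstream of the inner start in 7 livers and 7855 bases downstream in Cpt2KO replicate 2. WT lists held 1 peak over the interval in each liver, Cpt2KO lists 4 and 1, PparaKO lists 7 and 10 and DKO lists 6 and 4. The mean fold was thus taken over unlike numbers of peaks. The bases before the inner start are shown as the start whose acetylation differed, chr6:88724454-88724703 in GRCm38.p6, plus strand, from RefSeq, 5′ to 3′, in lower case as no match was found.
Mgll promoter: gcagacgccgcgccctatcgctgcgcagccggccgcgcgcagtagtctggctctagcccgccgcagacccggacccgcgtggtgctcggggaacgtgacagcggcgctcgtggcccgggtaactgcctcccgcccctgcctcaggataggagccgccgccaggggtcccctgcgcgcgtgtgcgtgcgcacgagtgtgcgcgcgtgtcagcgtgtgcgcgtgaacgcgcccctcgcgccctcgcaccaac

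Upstream of Mgll, chr6:88717336-88718700 gave folds of 6.18 and 5.76 in WT, 16.9 and 11.5 in Cpt2KO, 8.49 and 8.25 in PparaKO, and 10.7 and 11.5 in DKO. All 4 livers lacking Cpt2 were above all 4 with it. H3K27ac rose by 1.05 ± 0.27 in Cpt2KO against WT (adjusted p = 0.02) and by 0.63 ± 0.19 over both backgrounds (adjusted p = 0.0396). The Cpt2KO call was lost without WT replicate 2 (0.0922) or Cpt2KO replicate 1 (0.223), and the call over both backgrounds with the intervals tested as centre (0.0669) and without any library except WT replicate 1 (0.0536 to 0.181).

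Presence and absence of Mgll peaks varied as well. Nearer the start, chr6:88722488-88723496 was called at 5.03 and 5.17 in WT and 5.20 and 5.42 in PparaKO and in no liver lacking Cpt2, and within the gene chr6:88794508-88795237 was called at 3.5 and 5.45 in Cpt2KO and 5.17 in DKO replicate 1 and in no liver with it. With the G0s2 interval above and chr17:56271243-56272958 below Plin3 (5.67 and 5.57 in WT, 4.65 in PparaKO replicate 1), 3 of 74 intervals were called in at least 3 livers with Cpt2 and none without, 4.05% against 2.49% of all. The gain in Mgll was 1 of 74, 1.35% against 4.5% of all.

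**Figure D5:**
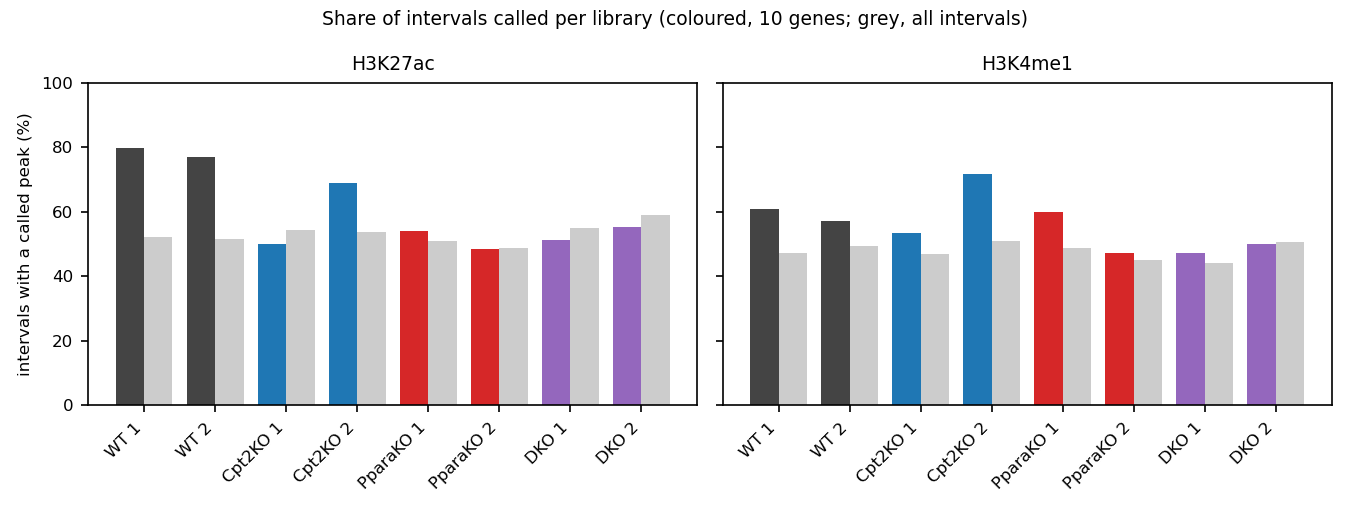
Share of intervals with a called peak (y axis, percent) in each library (x axis) for the 10 genes (coloured by genotype) and for all intervals of the mark (grey). For H3K27ac the 10 genes stand at 79.7% and 77% in WT and at 48.6% to 68.9% in the other 6 libraries, while all intervals stand at 48.8% to 59.0% in the 8.

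H3K27ac peaks were called at more of the members in WT than in the other genotypes. WT livers had a peak at 59 and 57 of the 74 intervals, Cpt2KO livers at 37 and 51, PparaKO livers at 40 and 36, and DKO livers at 38 and 41. Mgll held 29 of the 74 intervals, so this count is weighted to it, and intervals of a gene are not replicates. For H3K4me1, the members called were 67 and 63 of 110 in WT, 59 and 79 in Cpt2KO, 66 and 52 in PparaKO, and 52 and 55 in DKO. Cpt2KO replicate 2 stood highest, at 71.8%, and was also the highest over all H3K4me1 intervals, at 51.0% in a range of 44.1% to 51.0%.

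No H3K4me1 interval of these genes passed in any of the 3 comparisons made for this mark. Of 110 intervals, 31 could be tested. For Ppara limma gave 0 calls, where 0.149% of all 19526 intervals passed, 0.0563% higher and 0.0922% lower. It gave 0 for Cpt2 (0.0% of all) and 0 for the interaction (0.0% of all). At an unadjusted p under 0.05 there were 10 for Ppara (32.3%, against 13.9% of all). There were 3 for Cpt2 (9.68%, against 9.85%) and 2 for the interaction (6.45%, against 2.85%). The median for Ppara was -0.19 over the 31 and -0.01 over all. Without Cpt2KO replicate 1, 5 of 31 members passed for Ppara, 2 higher and 3 lower, where 4.76% of all intervals passed, 2.37% higher and 2.39% lower.

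Leading H3K4me1 intervals gave the following levels. Over Plin4 and Plin5, chr17:56108783-56117610, folds were 11.8 and 16.9 in WT, 16.7 and 16.7 in Cpt2KO, 12.8 and 7.77 in PparaKO, and 7.25 and 8.31 in DKO, with -0.80 ± 0.20 for Ppara (adjusted p = 0.108). In the Mgll body, chr6:88726200-88736106, they were 17 and 16.7 in WT, 9.26 and 17.9 in Cpt2KO, 8.90 and 9.66 in PparaKO, and 10.8 and 8.88 in DKO, with -0.63 ± 0.21 (adjusted p = 0.204). In both, 3 of the 4 livers with Ppara stood above the 4 without it, and neither difference passed.

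Lipe and Pnpla2 had lower H3K4me1 values in some livers without Ppara. At Lipe, chr7:25384806-25395525, folds were 16.2 and 15.9 in WT, 15.1 and 10.5 in Cpt2KO, 15.8 and 7.71 in PparaKO, and 9.79 and 8.29 in DKO. At Pnpla2, chr7:141456329-141461219, they were 10.8 and 12.2 in WT, 9.78 and 12 in Cpt2KO, 10.0 and 7.0 in PparaKO, and 7.22 and 8.47 in DKO. The groups overlapped at both genes, with adjusted p-values of 0.316 at Lipe and 0.318 at Pnpla2.

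At Plin2, chr4:86670110-86673696 had H3K4me1 folds of 8.43 and 7.33 in WT, 11.3 and 13 in Cpt2KO, 7.83 and 7.18 in PparaKO, and 7.30 and 8.20 in DKO. The Cpt2KO livers were the highest, as for H3K27ac in the gene body, but no comparison passed. Upstream of Cidec, chr6:113436899-113439446 had 9.87 and 8.79 in WT, 15.1 and 10.3 in Cpt2KO, 11.2 and 9.89 in PparaKO, and 9.30 and 12 in DKO. Both Cpt2KO livers were above both WT livers, as for H3K27ac, while PparaKO and DKO livers overlapped. Cpt2KO against WT was not among the comparisons made for this mark. Upstream of G0s2, chr1:193274561-193281033 had 12.7 and 11.3 in WT, 17.4 and 12.4 in Cpt2KO, 10.9 and 13.6 in PparaKO, and 18.7 and 15.5 in DKO.

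Below Plin3, in Ticam1, chr17:56269453-56274828 had H3K4me1 folds of 12.6 and 13.5 in WT, 5.43 and 11.9 in Cpt2KO, 12.2 and 8.95 in PparaKO, and 8.63 and 9.45 in DKO. Cpt2KO replicate 1 was the lowest and WT the highest, with -0.48 ± 0.24 for Cpt2 (adjusted p = 0.514).

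H3K4me1 peaks were lost without Ppara at 4 of 110 intervals, 3.64% against 2.84% of all. In the Plin2 body, chr4:86657608-86658878 was called in all 4 livers with Ppara (5.65 and 6.18 in WT, 5.17 and 5.0 in Cpt2KO) and chr4:86661752-86662278 likewise (3.09 and 3.67, 3.56 and 3.67), and neither in any liver without it. The other 2 were downstream in Plin4, chr17:56102029-56102739 (7.33 and 9.67 in WT, 5.5 in Cpt2KO replicate 2), at the place where H3K27ac was also lost, and in Mgll, chr6:88801520-88802666 (5.40 and 6.11 in WT, 6.0 in Cpt2KO replicate 2). At the Plin4 site the peak was held in both WT libraries and Cpt2KO replicate 2 for both marks. The labels do not say whether equal replicate numbers of the 2 marks are the same liver.

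Gains without Ppara were 2 of 110, 1.82% against 1.96% of all: upstream of Plin3, chr17:56292361-56293914 was called at 5.38 and 4.68 in PparaKO and 4.66 and 7.23 in DKO, and below G0s2, chr1:193270933-193271221 at 6.86 and 5.83 in PparaKO and 7.27 in DKO replicate 1. For Cpt2, the gains were the Cidea interval above and chr4:86626186-86626584 below Plin2 (4.97 in Cpt2KO replicate 1, 5.29 and 8.38 in DKO), 1.82% against 1.41% of all. The loss was an interval just inside Mgll, chr6:88724900-88725306 (4.0 and 5.28 in WT, 5.17 in PparaKO replicate 1), 0.909% against 1.3% of all.

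H3K9ac, measured in 1 WT and 1 Cpt2KO liver, has positions only and no replicate, so no test was made. The interval over the start was called in both livers at each of the 9 genes with an annotated start. Of 100 member intervals, 61 were called in both (55.2% of all intervals were), 10 in WT only (20.8% of all) and 29 in Cpt2KO only (23.9% of all). Plin4 had 4 intervals in WT only and 0 in Cpt2KO only, and Mgll had 3 and 13. The WT-only intervals of Plin4 lay in its body and just beyond its end, none over the start, while the H3K9ac interval at the site of the H3K27ac loss, chr17:56102085-56102674, was called in both livers.

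The other 21 genes of droplet assembly and lipolysis, a list of droplet proteins, lipases and triacylglycerol synthesis enzymes, had 38 tested H3K27ac intervals. Without Ppara 0 rose and 5 fell (13.2%, against 6.8% of all), and each of the 5 was kept under each of the 3 other scalings. They lay at Abhd6 (a monoacylglycerol lipase), Fitm2 and Fitm1 (droplet formation at the endoplasmic reticulum) and, with 2 intervals, at Hsd17b11 (a droplet dehydrogenase); the Fitm1 interval lies in the neighbouring gene Emc9. Abhd6, at 22.1 and 18.3 in WT, 31.6 and 31.6 in Cpt2KO, 6.38 and 8.67 in PparaKO, and 9.57 and 8.29 in DKO, fell by 1.67 ± 0.18 (adjusted p = 0.0001). Fitm2, at 15.3 and 22.4 in WT, 26.1 and 25.1 in Cpt2KO, 8.53 and 8.89 in PparaKO, and 10.4 and 11.2 in DKO, fell by 1.20 ± 0.18 (adjusted p = 0.000689). At both genes each liver without Ppara was below each liver with it.

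DKO against Cpt2KO lowered 3 of these 38 intervals (7.89%, against 2.03% of all), at Abhd6, Fitm2 and Hsd17b11, and 0 of the 30 member intervals. The difference between the lists was not tested. Without Cpt2, 4 of the 38 rose and 0 fell, at Dgat2, Hilpda, Hsd17b13 and Lipa. This share of 10.5% was no higher than the 12.2% of all intervals called, 7.26% higher and 4.99% lower. Only Dgat2 (a triacylglycerol synthesis enzyme, 0.79, adjusted p = 0.0152) also passed when centred on the intervals tested (0.0247). Peaks were lost without Ppara at 13 of 127 H3K27ac intervals of these genes (10.2%, against 1.73% of all) and at 22 of 206 H3K4me1 intervals (10.7%, against 2.84%). Among them was an interval of Mogat1, a monoacylglycerol acyltransferase, named after its values were seen, where H3K27ac stood at 9.25 and 13.4 in WT, at 32.8 and 32 in Cpt2KO, and had no peak in PparaKO or DKO. Intervals of a gene are not replicates, and these losses were not split by gene, so a few genes may hold many of them. H3K4me1 gave 0 calls by limma among these genes for Ppara, with 4 of 37 at an unadjusted p under 0.05 (10.8%, against 13.9% of all).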

How the data were processed

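Histone marks in fasted mouse liver were measured by ChIP-seq with Active Motif antibodies. Per the submitters' processing notes the tools named were BWA and MACS2 2.1.0 and the build mm10; parameters are not given in the sources used here. The authors deposited 16 peak lists, 1 a library for H3K27ac and H3K4me1, whose columns hold each peak's fold enrichment over 1 pooled input shared by both marks (a ratio) and its −log10 q as MACS2 gave it, and interval lists for H3K9ac with positions only.

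The authors also deposited a list of consensus intervals per mark; how it was merged is not given in the sources used here. Intervals were assigned to RefSeq genes (GRCm38.p6) and overlapped with each library's peaks by at least 1 base with bedtools 2.31.1. The highest fold of the peaks overlapping an interval was taken on the log2 scale, with no pseudocount, and centred on the median of its library's peak list. Intervals called in all 8 libraries were fitted with limma 3.58.1 (R 4.3.3) over the 4 genotypes, with Benjamini-Hochberg adjustment over all intervals tested at 0.05; the requirement leaves out intervals that a genotype lacks, which were described by their calls (at least 3 of 4 livers against none). Errors after ± are standard errors from limma, with 2 livers per genotype. The remaining steps used Python 3.11.15, pandas 2.3.3 and numpy 2.4.6.

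Tested on simulated data made from the real intervals, the fit recovered 93.0% of 100 H3K27ac intervals changed by 1 log2 unit and 100.0% of 100 changed by 2 for Ppara (18281 intervals), and 89.0% and 100.0% for H3K4me1 (19526 intervals). The simulated noise was normal and independent, with the fitted spread and no shift shared across a library. Only the Ppara comparison, 4 libraries against 4, was simulated, so recovery between single genotypes, 2 against 2, is not known. The replicate numbers of the titles were checked as pairs and did not pair the livers. Named intervals were the leading interval of each gene, the intervals past the threshold and those with a call pattern; others named were chosen after their values were seen. The genes, the lists and the tests were chosen with earlier results of these data known. Centring on the tested intervals and the description of peaks at start sites were added after the data were seen. The alternatives, whose effect closes the text, were other scalings, a filled value for uncalled libraries, the mean fold, stricter overlap and q, a replicate block, the smallest peak width as covariate, members within 2000 bases, and each library left out.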

Additional observations from a re-analysis of the deposited data

How the results depend on the processing

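The counts of called member intervals moved by over 1.5 times under these alternatives. With uncalled libraries filled with the lowest fold of their list, more intervals enter the fit and H3K27ac calls among 58 members were 16 for Ppara (1 higher, 15 lower; 25.7% of all intervals passed), 21 for Cpt2 (8 higher, 13 lower; 35.7%), 22 for Cpt2KO against WT (7 higher, 15 lower; 28.1%), 14 for PparaKO against WT (1 higher, 13 lower; 15.7%), 2 for DKO against Cpt2KO (12.8%) and 11 for the interaction (9 higher, 2 lower; 14.6%). The balance for Cpt2 and for Cpt2KO against WT thus turned from more higher to more lower calls. Among 69 H3K4me1 members, calls were 7 for Ppara (13.1% of all) and 1 for Cpt2 (8.53%). With smallest peak width as covariate, H3K27ac calls were 1 for Ppara (3.76% of all intervals passed) and 0 for Cpt2 (0.0%), Cpt2KO against WT (0.0%) and PparaKO against WT (0.0438%). The Cidec interval at 113436936 turned to -0.0529 for Cpt2. Without centring there were 1 call for Ppara and 10 for Cpt2, with the mean fold 1 for Ppara, and with quantile normalization or centring on the tested intervals 2 for Cpt2. Members within 2000 bases, fewer in number, gave 2 for Cpt2 and 3 for Cpt2KO against WT.

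Leaving out each library in turn gave 1 to 3 H3K27ac calls for Ppara, 1 to 6 for Cpt2, 1 to 7 for Cpt2KO against WT, 0 to 3 for PparaKO against WT and 0 to 1 for DKO against Cpt2KO, and 0 to 5 H3K4me1 calls for Ppara; the count for Ppara was 1 without any of WT replicate 2, Cpt2KO replicate 2, PparaKO replicates 1 and 2 and DKO replicate 1, and for PparaKO against WT it was 0 without WT replicate 2 or PparaKO replicate 1. The lowest count came without PparaKO replicate 2 for Cpt2 and without Cpt2KO replicate 1 for Cpt2KO against WT. A lone remaining liver is then assumed to vary like the other groups. In these low-count H3K27ac fits the share of all intervals called fell as well, so the lower counts are not particular to these genes. For PparaKO against WT without PparaKO replicate 1, log2 differences were -1.05 over the Mgll start, -0.998 in G0s2 and -1.12 over Plin4 and Plin5. Without WT replicate 2 they were -1.28, -1.03 and -0.86, and as reported -1.26, -1.09 and -1.04.

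With a pattern defined by all 4 livers, H3K27ac intervals lost were 0 for Ppara and 1 for Cpt2 and gained were 0 for Cpt2, while H3K4me1 gave 1 gained and 2 lost for Ppara and 0 gained and 0 lost for Cpt2. A −log10 q of at least 10 left 0 H3K27ac intervals gained and 0 lost for Cpt2. Within 2000 bases there were 1 lost for Cpt2 (H3K27ac), 1 gained for Ppara and 1 for Cpt2 (H3K4me1), and 18 H3K9ac intervals called in Cpt2KO only. The cause of these differences was not tested.

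With the replicate number as a replicate block, H3K27ac calls were 3 for Ppara, 5 for Cpt2, 7 for Cpt2KO against WT, 3 for PparaKO against WT, and 0 for the other 2 comparisons, and H3K4me1 gave 0 in all 3. To check pairing, the mean of each genotype was taken off each tested interval. The deviations left in replicate 1 correlated between genotypes at -0.0649 to 0.172 for H3K27ac and -0.489 to 0.101 for H3K4me1. The -0.489 was between Cpt2KO and PparaKO. Replicates 1 and 2 of their H3K4me1 lists covered 41.4 and 53.5 Mb in Cpt2KO and 53.3 and 42.7 Mb in PparaKO. With the block, 8.09% of all H3K27ac intervals passed for Ppara, against 6.8% without it. A batch or depth shared by livers of different numbers was not tested. Among values for single intervals that passed as reported, 192 stayed past the threshold in an alternative, 95 lost it and 1 reversed; of those that had not passed, 1422 were the same, 98 moved and 22 passed. Depth is unknown for these peak lists, and 2 livers per genotype limit every comparison.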
